A study of Mus musculus with 10 samples.

Results

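The cytosolic ribosomal protein genes were followed in male mouse embryonic stem cell (ESC) lines that carry 2, 1 or 0 working copies of Tdg, the gene of thymine-DNA glycosylase, an enzyme that removes oxidised and mismatched pyrimidines from DNA. The members are the protein-coding genes whose symbol is Rpl or Rps followed by a digit, with Rplp0, Rplp1, Rplp2 and Rpsa, and without the Rps6k kinases and the pseudogenes. They number 86 of 35427 genes, of which 52 are named for the large subunit and 34 for the small subunit. Rps27rt held no read in any of the 10 lines, so 85 members entered the tests. The symbol rule also takes in Rps19bp1, which encodes a protein that binds Rps19 and is not itself a part of the ribosome.

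The lines were 3 of the genotype wt (Tdg+/+), 3 Tdg+/- and 4 Tdg-/-, each sequenced as 1 library, and all were labelled male and C57BL/6 and were kept untreated on gelatin in serum-free medium with 2 kinase inhibitors (2i) and leukemia inhibitory factor (LIF). They came from crosses of Tdg+/- parents and had been grown on feeder cells, which were removed a few passages before RNA was taken, so each line is its own derivation, and which mating gave which line is not in the labels. Values are given in the order of the line numbers, 1 to 3 for wt and Tdg+/- and 1 to 4 for Tdg-/-, and CPM are read counts scaled to the size of each library. The study used the ESCs to ask how lower TDG levels change gene expression. Tdg itself had 86.5, 91.2 and 93.2 CPM in wt, 40.4, 41.9 and 45.9 in Tdg+/-, and 7.76, 10.6, 10.3 and 8.50 in Tdg-/-, without overlap between genotypes, so the 10 labels and the level of the targeted gene went together. The difference between Tdg-/- and wt was -3.26 ± 0.14 (SE, adjusted p = 9.98e-06) on the log2 scale.

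The cytosolic ribosome is built from ribosomal RNAs and a set of proteins needed in matching amounts, so their genes are expressed together and at high levels, above all in growing cells such as ESCs. Their transcripts are short, and most begin with a C followed by a run of pyrimidines at the cap, the 5′ terminal oligopyrimidine (TOP) element, through which the mTOR kinase and the RNA-binding protein Larp1 set how much of the RNA is stored or translated. In many of their promoters, sites of ETS family factors lie close to the start and a TATA box is lacking.

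For a view of pyrimidines near the start, the start regions of the 10 genes called higher in Tdg-/- than in Tdg+/- lines were read. They came from a RefSeq table of build GRCm38.p6 that gives 250 bases before and 50 after each annotated start. In it, 66 of the 86 members have an entry. Each line gives the gene, the position and strand, and 30 bases in the direction of transcription, with the longest run of pyrimidines between 40 bases before and 20 after the start in capitals. The run need not lie at the cap, so the capitals do not mark TOP elements. It began 38, 28, 26, 22 and 20 bases before the annotated start in Rpl12, Rps19, Rpl39l, Rps25 and Rpl5. In Rps15a and Rps16 it began 15 and 11 bases before, and in all of these it ended before the start. In Rps18 it began 2 bases before the start and ran past it, and in Rpl22l1 it began at base 2 after it. Rpl30 is the one not shown.
Rpl5 (chr5:107900498-107900527, plus strand): cctacagccaCTCTTTCTCacgtcgcttgc
Rpl12 (chr2:32961663-32961692, plus strand): cgagagctgagCTTTTCCgcctatatccgg
Rpl39l (chr16:10170192-10170221, plus strand): acacccactgCCTCTCCCTagctcccaggc
Rpl22l1 (chr3:28805499-28805528, plus strand): cgcaagcccgTTCTCTTCCCacggctgcag
Rps16 (chr7:28350666-28350695, plus strand): ccgtaaagcccgCTTCTgtcgtgacgtagc
Rps19 (chr7:24884552-24884581, plus strand): ctggtttagccgCTCTCgcgagcactccga
Rps25 (chr9:44407684-44407713, plus strand): ccaccgggCTTCCTTTTTTTCCgacatctt
Rps15a (chr7:118116143-118116172, minus strand): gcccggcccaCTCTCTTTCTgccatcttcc
Rps18 (chr17:33955647-33955676, minus strand): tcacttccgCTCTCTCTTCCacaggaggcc

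The run was longest in Rps25, at 14 pyrimidines, and shortest in Rps16 and Rps19, at 5. A run of at least 8 pyrimidines lay in this window in 39 of 78 member promoters, against 24.2% of all 32851 promoters and 25.3% of the 75 promoters of mitochondrial ribosomal protein genes. Runs anywhere in the window were counted, so these are not counts of TOP elements. The ETS core CCGGAAG and TATAAA were searched in a wider region, all 250 bases before and 50 after the start. Both strands were read, and overlap with other motifs was allowed. The ETS core was found in 34.6% of member promoters and 8.86% of all, and the share in the mitochondrial ribosomal protein genes was 34.7%. TATAAA was found in 8.97% of member promoters and 13.6% of all. Among the called genes, 3 held the ETS core within 100 bases before the start, shown here in capitals within those 100 bases.
Rpl39l (chr16:10170128-10170227, plus strand): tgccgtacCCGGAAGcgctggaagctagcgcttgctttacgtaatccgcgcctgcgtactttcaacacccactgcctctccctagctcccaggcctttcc
Rps25 (chr9:44407614-44407713, plus strand): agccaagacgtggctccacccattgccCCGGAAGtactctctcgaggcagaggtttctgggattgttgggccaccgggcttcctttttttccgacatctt
Rps18 (chr17:33955666-33955765, minus strand): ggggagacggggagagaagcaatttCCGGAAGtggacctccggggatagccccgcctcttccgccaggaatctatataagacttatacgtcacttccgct

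The lines held 31095285 to 39916039 reads in genes. The ESC genes Pou5f1 (1016 to 1893 CPM) and Nanog (565 to 699.5 CPM) were high in all 10 lines, while the 10 markers of feeder fibroblasts summed to 27.0, 54.7 and 44.2 CPM in wt, 37.7, 6.93 and 57.8 CPM in Tdg+/- and 43.8, 32.9, 37.2 and 15.8 CPM in Tdg-/-, and 0 of them passed the adjusted threshold in any comparison. Of the 10 ESC markers listed, 0 passed it either, but they were not uniform. At an unadjusted p under 0.05, 4 were higher and 2 lower in Tdg-/- than in Tdg+/-, beside 16.4% and 18.8% of all genes. Against wt, 3 were higher and 0 lower in Tdg-/-, beside 9.13% and 6.79%. In each genotype, line 1 stood apart from the others across all genes. Its counts differed from theirs by 54.5 and 72.2 chi-square units per gene in wt, 42.7 and 58.2 in Tdg+/- and 87.4 to 143.8 in Tdg-/-, whereas the other lines differed from each other by 20.9 in wt, 27.0 in Tdg+/- and 19.2 to 27.6 in Tdg-/-. The gap was widest in Tdg-/-, and counts of calls are given with and without line 1 of each genotype where leaving it out clearly moved them.

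In the reads, ribosomal protein genes took a larger share in 3 of the 4 Tdg-/- lines than in any other line. The large subunit genes held 7.47, 7.08 and 6.94% of the reads in genes in wt, 7.42, 7.05 and 6.84% in Tdg+/-, and 6.90, 9.27, 8.88 and 8.67% in Tdg-/-. The small subunit genes held 5.73, 5.75 and 5.50% in wt, 5.72, 5.42 and 5.39% in Tdg+/-, and 5.56, 7.97, 7.39 and 7.13% in Tdg-/-. The means were 12.8 ± 0.384% (SD, n = 3) in wt, 12.6 ± 0.478% (SD, n = 3) in Tdg+/- and 15.4 ± 2.08% (SD, n = 4) in Tdg-/- for both subunits together. Tdg-/- line 1, at 12.5%, lay within the range of the wt and Tdg+/- lines, so the genotypes overlapped. In libraries made from bulk RNA, fewer cells of a type and less RNA per cell cannot be told apart. Depth moved with this in part: Tdg-/- lines 2 to 4 held 36220080 to 39724724 reads in genes, above Tdg-/- line 1 (31987652), Tdg+/- line 1 (31786749) and the 3 wt lines (31095285 to 35796865), while Tdg+/- lines 2 and 3, whose shares were low, held 38086902 and 39916039. Its part in the shares was not tested.

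**Figure D1:**
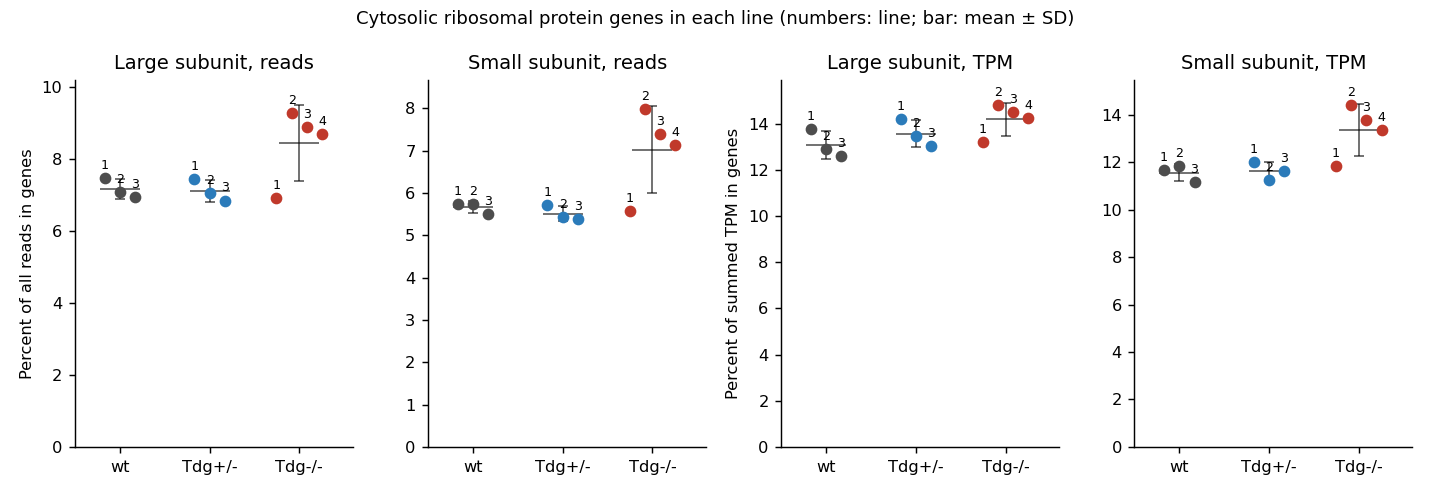
Share of the large and small subunit genes in each line, as a percent of all reads in genes (left pair) and of summed TPM in genes (right pair), with each point a line numbered within its genotype and the bar the mean ± SD. Tdg-/- lines 2 to 4 lie above the other 7 lines in all 4 panels, and the gap is smaller in TPM than in reads.

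On the TPM scale, which divides reads by the effective transcript length estimated in each library, the same lines were higher by less. The large subunit genes made up 13.8, 12.9 and 12.6% of summed TPM in the wt lines, 14.2, 13.4 and 13.0% in the Tdg+/- lines and 13.2, 14.8, 14.5 and 14.2% in the Tdg-/- lines. The small subunit genes made up 11.7, 11.8 and 11.2% in wt, 11.99, 11.3 and 11.6% in Tdg+/- and 11.8, 14.4, 13.8 and 13.3% in Tdg-/- lines. The median log2 TPM difference of the members from each gene's middle value over the 10 lines was -0.00046, 0.08, 0.092 and 0.03 for the large subunit in Tdg-/- lines. It was -0.02, 0.28, 0.17 and 0.10 for the small subunit, and 0.087, -0.24, -0.16 and -0.14 for 7542 other protein-coding genes. On both scales the subunit shares were highest in the same 3 lines, while the median of the other genes was below 0 there in TPM.

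Gene by gene, the medians of the subunits moved alike. The median difference of log2 CPM from each gene's middle value was -0.02, -0.028 and -0.073 in wt, -0.0076, -0.059 and -0.094 in Tdg+/- and -0.087, 0.51, 0.43 and 0.33 in Tdg-/- lines for the 52 large subunit genes. For the 33 small subunit genes it was 0.0099, -0.0073 and -0.077 in wt, -0.028, -0.056 and -0.11 in Tdg+/-, and -0.069, 0.64, 0.54 and 0.47 in Tdg-/- lines. Small subunit genes were thus the further up in each of Tdg-/- lines 2 to 4, and the ratio of large to small subunit reads was lowest there, at 1.24, 1.16, 1.20 and 1.22 in Tdg-/- lines 1 to 4 against 1.30, 1.23 and 1.26 in wt and 1.30, 1.30 and 1.27 in Tdg+/- lines. No test was made of this ratio.

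**Figure D2:**
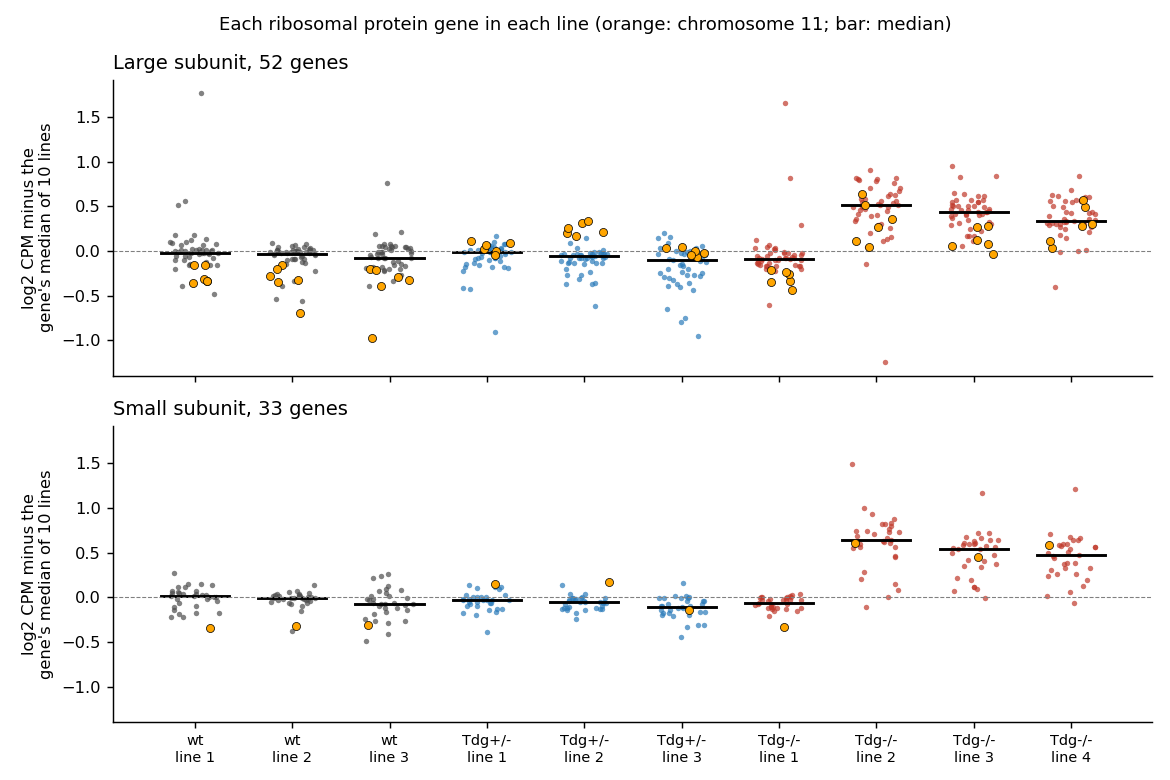
log2 CPM of each ribosomal protein gene minus that gene's median over the 10 lines (y axis) by line (x axis), with large and small subunit genes apart, chromosome 11 members in orange and the median as a bar. The bars of Tdg-/- lines 2 to 4 lie between 0.33 and 0.64 and those of the other 7 lines between -0.11 and 0.0099.

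Gene length moved with these differences. In Tdg-/- lines 2 to 4, short genes had medians above 0 and long genes below 0 among other protein-coding genes, and ribosomal protein genes are short, with a median transcript length of 629 bases against 2106 in the other protein-coding genes. In genes of at most 750 bases, the median log2 difference in the Tdg-/- lines was -0.11, 0.32, 0.20 and 0.24 for 535 other genes and -0.089, 0.61, 0.49 and 0.42 for 55 members. In genes over 5000 bases, it was 0.10, -0.35, -0.23 and -0.25 for 733 other genes. In genes of 1000 to 1500 bases, it was -0.026, 0.078, 0.049 and 0.072 for 1655 other genes and 0.026, 0.56, 0.46 and 0.44 for 9 members. At the lengths given for both kinds of genes, the members had the higher median in Tdg-/- lines 2 to 4.

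**Figure D3:**
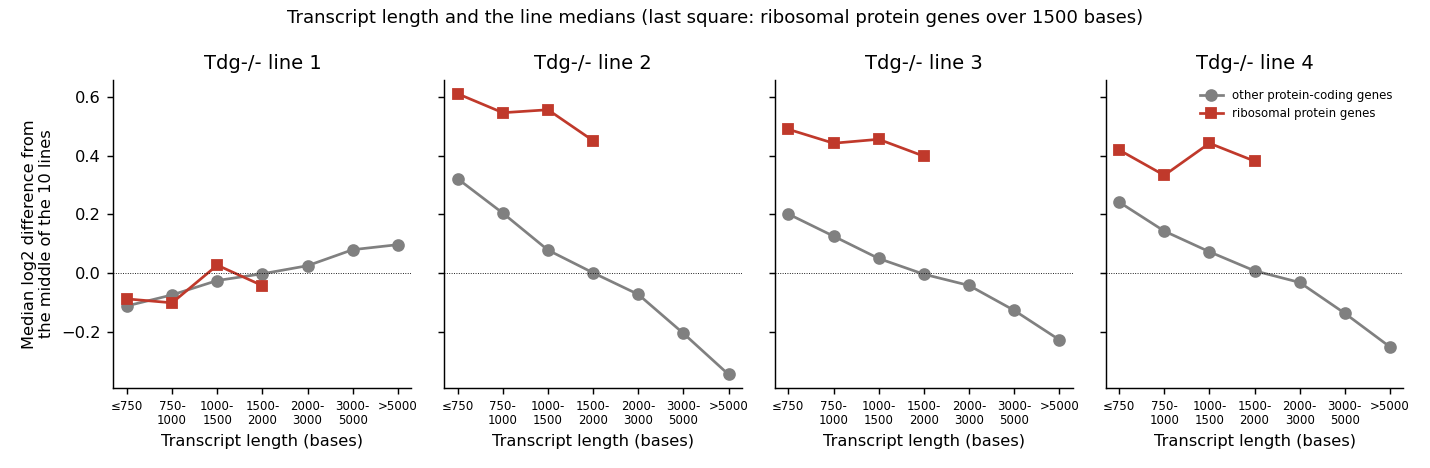
Median offset on the log2 scale from each gene's 10-line median (y axis) by transcript length in bases (x axis) in each Tdg-/- line, for ribosomal protein genes (squares) and other protein-coding genes (circles). In lines 2 to 4 the circles fall with length, the squares do not fall steadily, and the squares lie above the circles.

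The comparison of Tdg+/- with wt asked whether losing 1 copy of Tdg changed these genes. No member passed an adjusted p of 0.05 in edgeR's quasi-likelihood test, against 0.0288% of the 13880 genes tested (0.0144% in each direction). At an unadjusted p under 0.05, 7 of the 85 members passed with a higher and 4 with a lower level, against 9.55% and 7.41% of all genes. DESeq2 called 5 members, a count given without the share of all genes that it called. In 9 members all Tdg+/- lines lay above all wt lines and in 11 below, beside 12.6% and 9.1% of all genes. The median log2 fold change was -0.071 for the large and -0.024 for the small subunit, beside -0.016 over all genes.

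The 7 members that were higher at an unadjusted p are the 7 members on chromosome 11. Rpl38, whose mutation in mice alters the skeleton, had 643, 649.7 and 629 CPM in wt, 836, 987 and 815 in Tdg+/-, and 655, 995, 902 and 1006 in Tdg-/-. All 3 Tdg+/- lines were above all 3 wt lines, and the log2 difference was 0.45 ± 0.10 (SE, unadjusted p = 0.00208, adjusted p = 0.109). Rpl27 had 930.5, 714 and 586 CPM in wt, 1123, 1461 and 1187 in Tdg+/-, and 854, 1794, 1398 and 1718 in Tdg-/-, a difference of 0.75 ± 0.18 (SE, unadjusted p = 0.00235, adjusted p = 0.109) with all Tdg+/- lines again above all wt lines. Rps27a, which encodes a fusion of ubiquitin with a small subunit protein, had 2134, 2158 and 2184 CPM in wt, 3001, 3056 and 2442 in Tdg+/-, and 2149, 4134, 3696 and 4066 in Tdg-/-. Its log2 difference was 0.38 ± 0.10 (SE, unadjusted p = 0.00517, adjusted p = 0.136). Rpl26, Rpl19, Rpl23 and Rpl23a had log2 fold changes of 0.40, 0.34, 0.31 and 0.28, none past the adjusted threshold, and in each the Tdg+/- lines did not overlap the wt lines. Rack1, a ribosome-bound scaffold protein outside the symbol rule, lies on the same chromosome and differed by 0.47 ± 0.10 (SE, unadjusted p = 0.00154, adjusted p = 0.104).

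Other genes of chromosome 11 moved in the same lines. The median log2 difference of 765 other chromosome 11 genes was -0.09, -0.083 and -0.12 in wt, 0.20, 0.43 and 0.27 in Tdg+/- and -0.028, -0.11, -0.18 and 0.042 in Tdg-/- lines, and that of the 7 members was -0.34, -0.33 and -0.31 in wt, 0.071, 0.22 and -0.018 in Tdg+/- and -0.33, 0.36, 0.13 and 0.31 in Tdg-/- lines. Tdg lies on chromosome 10. When each line's chromosome 11 and 16 medians were taken out, 0 members were higher at an unadjusted p under 0.05, a count given without the share of all genes in that fit. On chromosome 16, wt line 1 was the one that stood apart: 307 other genes had a median log2 difference of 0.399 there, and Rpl35a, a large subunit gene linked to Diamond-Blackfan anaemia, had 1669, 1038 and 1076 CPM in wt, 1196, 1037 and 882 in Tdg+/-, and 1031, 1844, 1679 and 1677 in Tdg-/-. Rpl24, also on chromosome 16, whose mutation in mice shortens the tail, had 1354, 934 and 960.1 CPM in wt, 933, 931 and 849 in Tdg+/-, and 886, 1349, 1313 and 1274 in Tdg-/-. Wt line 1 was the highest of the wt lines in both genes. The third chromosome 16 member, Rpl39l, is described with the paralogs.

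Lower in Tdg+/- at an unadjusted p, Rpl5, which carries 5S ribosomal RNA into the large subunit together with Rpl11, had 1519.8, 1498 and 2698 CPM in wt, 1190.0, 1230.4 and 821 in Tdg+/-, and 1662, 2039, 2837 and 2839 in Tdg-/-. Its log2 fold change was -0.83 ± 0.25 (SE, unadjusted p = 0.00947, adjusted p = 0.173), and all 3 Tdg+/- lines were below all wt lines, of which line 3 was far above the other two. Rps24, a small subunit gene also mutated in Diamond-Blackfan anaemia, had 2802, 3045 and 3452 CPM in wt, 2661, 2469 and 2149 in Tdg+/-, and 2628, 4856, 4465 and 4160.1 in Tdg-/-, a difference of -0.36 ± 0.11 (SE, unadjusted p = 0.0117, adjusted p = 0.178). Rpl10a had 1471, 1546 and 1536 CPM in wt, 1325, 1369.5 and 1279 in Tdg+/-, and 1416, 2629.9, 2230.0 and 2139 in Tdg-/-, a difference of -0.21 ± 0.082 (SE, unadjusted p = 0.0341, adjusted p = 0.258). In both genes all Tdg+/- lines were below all wt lines, and Rpl10l is described with the paralogs. Fau, the gene of small subunit protein S30, which is outside the symbol rule, had a log2 fold change of -0.16 ± 0.089 (SE, unadjusted p = 0.1, adjusted p = 0.392).

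**Figure D4:**
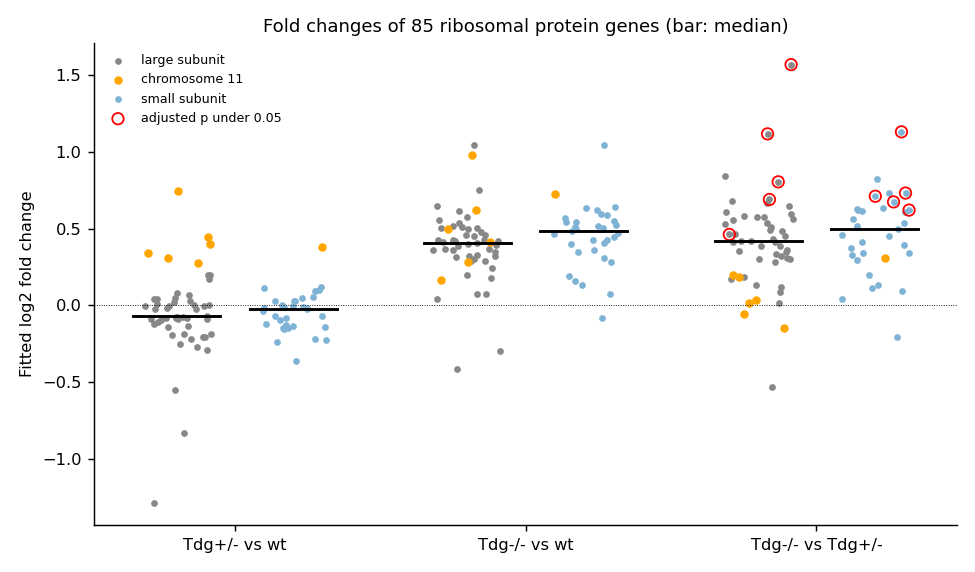
Fitted log2 fold change (y axis) of the 85 tested ribosomal protein genes in the 3 comparisons of genotypes (x axis), with large and small subunit genes side by side, chromosome 11 members in orange, genes with an adjusted p under 0.05 ringed and the median as a bar. The chromosome 11 members lie above the rest in Tdg+/- against wt and below the medians in Tdg-/- against Tdg+/-.

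In the comparison of Tdg-/- with wt, no member passed the adjusted threshold, against 0.0718% of 13926 genes (0.0359% in each direction), and 82 of 85 fold changes were positive. At an unadjusted p under 0.05, 57 members had a higher and 0 a lower level, beside 9.13% and 6.79% of all genes, and DESeq2 called 3 members. The median log2 fold change was 0.41 for the large and 0.49 for the small subunit, against -0.011 over all genes. In 9 members all Tdg-/- lines exceeded all wt lines and in 0 they lay below, beside 4.47% and 5.33% of all genes. With the replicate numbers as a block, which were taken to pair these lines, 0 members were called and 28 had a higher level at an unadjusted p under 0.05. That fit also leaves out Tdg-/- line 4, which has no partner, so the part of the block and that of the missing line cannot be told apart. The 57 became 37, 28 and 26 without wt line 1, 2 or 3, 26, 30 and 35 without Tdg-/- line 2, 3 or 4, and 75 without Tdg-/- line 1, and 27 with the length trend of each line taken out. The counts from DESeq2, the block and these alternatives stand without the share of all genes in the same fit. They therefore show how the counts depend on the setting and nothing particular to the members.

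The members with the smallest p were Rpl22l1, Rpl27 and Rpl26 in the large and Rps16, Rps27a and Rps15a in the small subunit, all with an adjusted p of 0.295. Rpl27 had a log2 fold change of 0.98 ± 0.26 (SE), and Rps27a of 0.73 ± 0.21 (SE), on the CPM given above, in which Tdg-/- line 1 was within the wt range and lines 2 to 4 were above it. The Rpl27 values leave out reads assigned to its pseudogene Rpl27-ps3, which were highest in wt lines 2 and 3, so its difference from wt is uncertain. Rpl26 had 1462, 1528 and 1506 CPM in wt, 1848, 2290.1 and 1849 in Tdg+/-, and 1598, 2636, 2221 and 2603 in Tdg-/-, a difference of 0.62 ± 0.18 (SE, unadjusted p = 0.00593, adjusted p = 0.295). The log2 fold changes of Rpl22l1, Rps16 and Rps15a were 0.51 ± 0.13, 1.05 ± 0.30 and 0.64 ± 0.19 (SE). Rps12, the member with the highest TPM, had 2819, 3607 and 3584 CPM in wt, 2505, 3019 and 3024 in Tdg+/-, and 2951, 6603, 5416 and 5242 in Tdg-/-, with 0.63 ± 0.24 (SE, unadjusted p = 0.0291, adjusted p = 0.297). Rps12 in Tdg-/- line 1 lay within the wt range and in the other 3 lines above it. Without Tdg-/- line 1, 69 members passed the adjusted threshold, and so did 3077 genes in all. Without that line, the medians were 0.52 for the large and 0.61 for the small subunit. With the length trend of each line also taken out, 34 members passed. The share of all genes called in that fit is not set beside this count, so it shows nothing particular to the members. With that trend taken out and all lines kept, the medians were 0.18 and 0.25, and 0 members passed. With 3 surrogate variables they were 0.084 and 0.10.

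Tdg-/- was also compared with Tdg+/-, which asks what the loss of the second copy changes, and here 10 members were called, all higher in Tdg-/-, 5 in each subunit. That is 11.8% of the 85, while 9.03% of the 13962 genes tested were called, 3.52% upwards and 5.51% downwards. At an unadjusted p under 0.05, 58 members had a higher and 0 a lower level, beside 16.4% and 18.8% of all genes. In 23 members all Tdg-/- lines lay above all Tdg+/- lines, and in 1, Rps26, below, beside 11.4% and 13.1% of all genes. The median log2 fold change was 0.42 for the large and 0.50 for the small subunit, against -0.017 over all genes. This comparison and the one with wt share the Tdg-/- lines, and the ones with wt share the wt lines. The count turned on single lines: it was 69 without Tdg-/- line 1, 3 without Tdg+/- line 1, and 0 without any one of Tdg+/- lines 2 and 3 or Tdg-/- lines 2 to 4. The share of all genes called in these fits is not set beside the counts, so they show unstable calls and nothing particular to the members. It was 21 with the length trend of each line taken out and 2 with the shifts of chromosomes 11 and 16 taken out, and the 58 became 32 without Tdg+/- line 3.

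Of the 5 large subunit genes, Rpl5 differed by 1.12 ± 0.22 (SE, adjusted p = 0.0273) on the CPM given above, and every Tdg-/- line was above every Tdg+/- line. Rpl12, a protein at the base of the ribosomal stalk, had 613, 549 and 514 CPM in wt, 509.8, 504 and 465 in Tdg+/-, and 569, 982, 997 and 895 in Tdg-/-, a rise of 0.81 ± 0.19 (SE, adjusted p = 0.0365). Tdg-/- line 1 lay among the wt lines and just above the Tdg+/- lines. Rpl30 had 815, 952 and 985 CPM in wt, 838, 794 and 775 in Tdg+/-, and 919, 1153, 1206 and 1142 in Tdg-/-, which gave 0.46 ± 0.12 (SE, adjusted p = 0.0478). Here Tdg-/- line 1 was within the wt range and above the 3 Tdg+/- lines. Rpl22l1, the paralog of Rpl22, had 281, 258 and 300.2 CPM in wt, 301, 234 and 191 in Tdg+/-, and 327, 421, 427 and 386 in Tdg-/-, with a rise of 0.69 ± 0.17 (SE, adjusted p = 0.0396). All 4 Tdg-/- lines were above all 6 other lines. Rpl39l was the fifth. Without Tdg-/- line 1, all 10 called genes stayed past the threshold, and their log2 fold changes ran from 0.54 in Rpl30 to 1.36 in Rps16. Line 1 was the lowest Tdg-/- line in all of them but Rpl39l, so leaving it out widened those differences and is no check of the calls. As given above, no call stayed when any other Tdg-/- line was left out.

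Of the 5 small subunit genes, Rps16 had 486, 399 and 366 CPM in wt, 383, 403 and 371 in Tdg+/-, and 404, 1136, 903 and 937 in Tdg-/-. Tdg-/- lines 2 to 4 were far above all others and line 1 was just above the Tdg+/- lines, and the log2 difference was 1.13 ± 0.29 (SE, adjusted p = 0.0438). Rps19, the gene most often mutated in Diamond-Blackfan anaemia, had 1378, 1489 and 1412 CPM in wt, 1261, 1283 and 1325 in Tdg+/-, and 1426, 2709, 2211 and 2098 in Tdg-/-, a rise of 0.71 ± 0.19 (SE, adjusted p = 0.0488). Rps25, which certain viral RNAs need for internal initiation, had 1549, 1714 and 1926 CPM in wt, 1549, 1599.8 and 1338 in Tdg+/-, and 1616, 2964, 2645 and 2712 in Tdg-/-, a rise of 0.73 ± 0.20 (SE, adjusted p = 0.049). In both genes Tdg-/- line 1 exceeded the Tdg+/- lines by little and lay within the wt range. Rps15a had 1336, 1509.9 and 1591 CPM in wt, 1460.2, 1459.7 and 1343 in Tdg+/-, and 1525, 2679.8, 2491 and 2373 in Tdg-/-, a rise of 0.67 ± 0.18 (SE, adjusted p = 0.0496). Rps18, in the head of the small subunit, had 2130.4, 1958 and 1845 CPM in wt, 1930.4, 1785 and 1702 in Tdg+/-, and 1988, 3290.3, 2954 and 2875 in Tdg-/-, a rise of 0.62 ± 0.17 (SE, adjusted p = 0.0498). Again line 1 lay within the wt range and above the Tdg+/- lines in both genes.

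**Figure D5:**
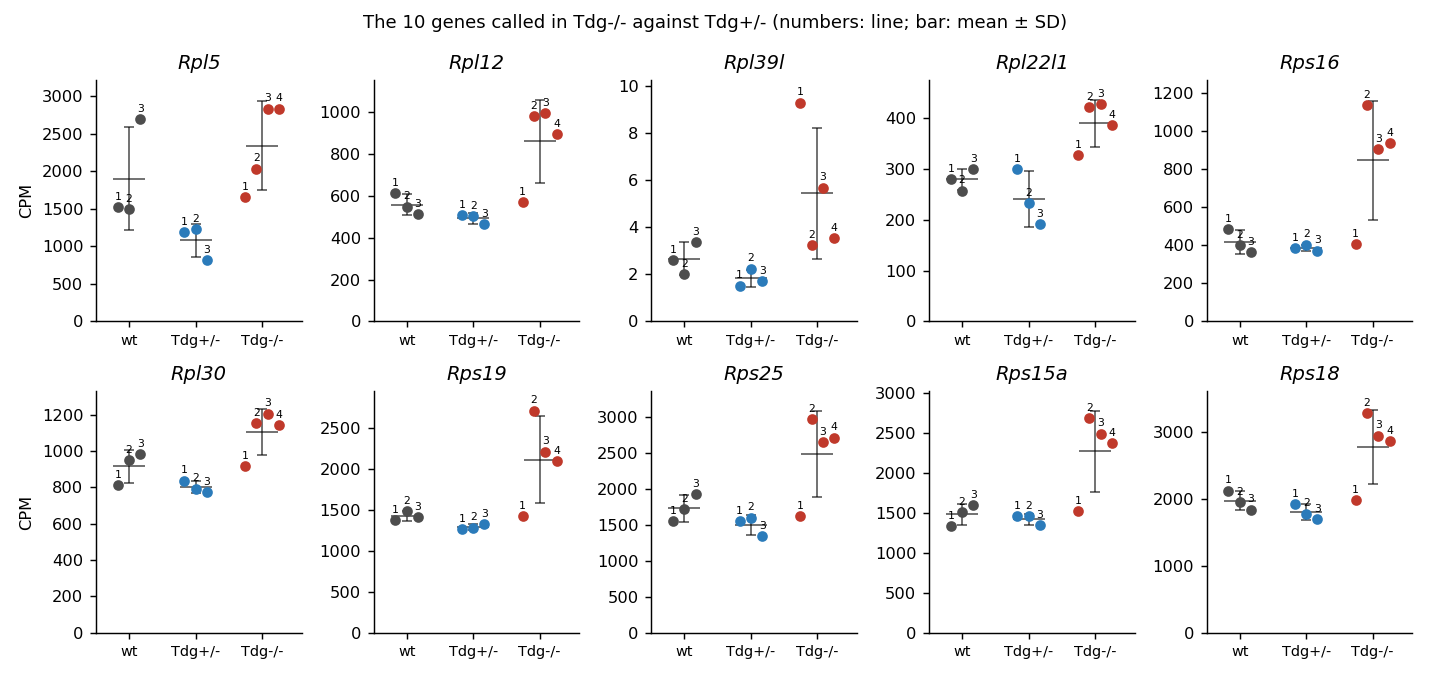
CPM (y axis, from 0) of the 10 genes called in Tdg-/- against Tdg+/- by genotype (x axis), with each point a numbered line and the bar the mean ± SD. In 9 of the 10 genes Tdg-/- line 1 is the lowest of the Tdg-/- lines, and in Rpl39l it is the highest.

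Some members differed little between genotypes. Rps2 had 3331, 3131 and 3068 CPM in wt, 3255, 3112 and 3230.3 in Tdg+/-, and 3233, 3253, 3415 and 3276 in Tdg-/-, and its log2 fold change was 0.076 against wt and 0.043 against Tdg+/-. Rps4x, the X-linked form of S4, had 2467, 2439.9 and 2364 CPM in wt, 2511, 2488 and 2482 in Tdg+/-, and 2559, 2648, 2709 and 2735 in Tdg-/-. Rpl4 had 2858, 2946 and 2996 CPM in wt, 2905, 2776 and 2730.0 in Tdg+/-, and 2826, 2996, 3148 and 2919 in Tdg-/-. In Rps4x the 4 Tdg-/- lines lay just above the other 6, and in Rps2 and Rpl4 the genotypes overlapped. These 3 had the smallest biological coefficients of variation of the members, 9.82%, 9.69% and 9.94%. None of the 3 had an unadjusted p under 0.05 in any comparison. The widest spreads were in Rpl10l (38.4%), Rpl39l (32.4%) and Rps16 (24.1%), and the median member, at 14.9%, was between the median of all 14105 genes, 17.6%, and that of the 1922 genes of at least 100 CPM, 13.7%. Rps26 had 870.0, 792 and 746 CPM in wt, 849, 863 and 879 in Tdg+/-, and 723, 732, 782 and 754 in Tdg-/-, with -0.21 against Tdg+/- (unadjusted p = 0.0593, adjusted p = 0.157). Rpl29 had 367, 545 and 508 CPM in wt, 513, 543 and 587 in Tdg+/-, and 337, 216, 573 and 388 in Tdg-/-, and Tdg-/- line 2 was its lowest line. Both were picked after their values were seen, and with Rpl10l they are the 3 members with a negative fold change of Tdg-/- against wt. Against Tdg+/-, the 4 negative ones were Rpl29, Rps26, Rpl23a and Rpl23.

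The acidic stalk proteins, which recruit translation factors to the large subunit, were part of the common pattern. Rplp0 had 4432, 3825 and 3595 CPM in wt, 4153, 3823 and 3969.9 in Tdg+/-, and 3788, 5349.9, 5031 and 5181 in Tdg-/-. Rplp1 had 1795, 1737 and 1468 CPM in wt, 1729.6, 1606 and 1807 in Tdg+/-, and 1645, 2537, 2444 and 2172 in Tdg-/-. Rplp2 had 928, 937 and 801 CPM in wt, 865, 809.6 and 996 in Tdg+/-, and 877, 1467, 1320.4 and 1138 in Tdg-/-. In these 3 genes Tdg-/- lines 2 to 4 were above the other 7 lines and line 1 was not. The log2 fold changes of Tdg-/- against wt were 0.32, 0.43 and 0.46, with adjusted p of 0.328, 0.297 and 0.296.

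Levels spread over several orders of magnitude on the TPM scale, which accounts for length. The highest were Rps12 (8063 to 15605 TPM over the 10 lines), Rps24 (6562 to 10394), Rpl13a (5828 to 10302), Rpl41 (6593 to 10189.7), the shortest ribosomal protein, and Rps2 (5449.8 to 8121), and their ranges over the lines overlap, so neighbours in this order do not differ beyond their spread. The lowest with reads were Rpl3l (0.425 to 0.798 TPM), Rpl10l (3.96 to 21.5), Rpl39l (4.67 to 31.3) and Rps19bp1 (14.1 to 20.9).

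Among the paralogs, each tissue-restricted copy was far below its partner on the TPM scale: Rpl3l at 0.425 to 0.798 TPM against 1932 to 2275 in Rpl3, Rpl39l at 4.67 to 31.3 against 1575 to 2474 in Rpl39, and Rpl10l at 3.96 to 21.5 against 2712 to 3995 in Rpl10. Rpl22l1, Rps27l, Rpl7l1 and Rpl36al were also below their partners, with Rpl22l1 nearest, at 743 to 1319 TPM against 1945 to 2815 in Rpl22. Rpl3l, a muscle form, had 0.676, 0.676 and 0.941 CPM in wt, 0.658, 0.863 and 0.844 in Tdg+/-, and 1.12, 1.35, 1.24 and 1.37 in Tdg-/-, with all Tdg-/- lines above the other 6. Rpl39l, a testis form on chromosome 16, had 2.61, 2.00 and 3.39 CPM in wt, 1.53, 2.25 and 1.71 in Tdg+/-, and 9.30, 3.25, 5.68 and 3.54 in Tdg-/-. Tdg-/- line 1 was the highest line for Rpl39l, whose rise against Tdg+/- was 1.57 ± 0.37 (SE, adjusted p = 0.0389). Rpl10l, a testis retrocopy, had 38.3, 8.89 and 11.9 CPM in wt, 10.6, 7.32 and 6.46 in Tdg+/-, and 19.8, 10.1, 14.04 and 14.2 in Tdg-/-. Its values in wt line 1 and Tdg-/- line 1 were above all others, and its log2 fold change was -1.29 ± 0.50 (SE, unadjusted p = 0.0321, adjusted p = 0.251) in Tdg+/- against wt. Without wt line 1, it was -0.36, and in Tdg-/- against wt it went from -0.42 to 0.50, none of them past the adjusted threshold. Rps27l had 374, 361 and 448 CPM in wt, 349, 372 and 297 in Tdg+/-, and 346, 590.3, 568 and 581 in Tdg-/-. The log2 fold changes of Rpl36a, Rpl36al, Rpl7 and Rpl7l1 in Tdg-/- against wt were 0.42, 0.36, 0.24 and 0.37, none past the adjusted threshold. On the X chromosome, the 4 members Rpl10, Rpl36a, Rpl39 and Rps4x had a median log2 fold change of 0.41 against wt, close to that of all members, 0.42. Reads can be split between near-identical copies, so values of paralogs are uncertain.

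The deposited values are per transcript, which shows how member reads were assigned to isoforms. Of all member reads, 78.6% to 80.2% were on transcripts annotated as protein-coding, 12.5% to 13.9% on retained-intron transcripts and 1.48% to 2.20% on targets of nonsense-mediated decay, so the sums varied little between lines. Single genes varied more. The retained-intron transcript Rps16-202 held 10.1, 3.12 and 3.87% of Rps16 reads in wt lines, 2.37, 26.6 and 24.98% in Tdg+/- lines and 5.77, 31.9, 21.9 and 27.0% in Tdg-/- lines, with Tdg+/- lines 2 and 3 within the range of Tdg-/- lines 2 to 4. The coding transcript Rps18-201 held 48.5, 34.9 and 17.9% of Rps18 reads in wt, 39.95, 67.4 and 83.5% in Tdg+/- and 27.8, 58.6, 42.9 and 53.8% in Tdg-/- lines. That of Rpl5, Rpl5-201, held 57.4, 60.1 and 42.6% in wt, 60.6, 70.6 and 77.4% in Tdg+/- and 52.4, 72.7, 60.5 and 59.6% in Tdg-/- lines. Both were lowest in wt line 3. The short isoform Rpl27-203 had 2050, 104 and 10 reads in wt lines, 3276, 3756 and 3275 in Tdg+/- lines and 2368, 4435, 2736 and 3998 in Tdg-/- lines, and was lowest in wt lines 2 and 3. In 28 of 85 members more than 25% of reads were on transcripts that are not annotated as coding, and in Rpl37 the mean was 98.5%. The reads were short and single-end, and the isoform shares carry no test.

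Processed pseudogenes, reverse-transcribed copies of these genes, took few reads, but some were present in single lines. The 286 pseudogenes named after a member held 0.585% to 1.93% of the reads of members and pseudogenes together, highest in wt line 3. Rps6-ps4 held 18777 reads in wt line 3 and 0 in the other 9 lines. Rpl27-ps3 held 3211, 7766 and 9706 reads in wt, 3345, 0 and 0 in Tdg+/- and 5051, 0, 3129 and 1036 in Tdg-/- lines, and was highest in wt lines 2 and 3, where the isoform Rpl27-203 was lowest. Rps16-ps2 had 1513 reads in wt line 3 and 0 in the other 9, and Rpl36a-ps2 had 1832 and 2305 in wt lines 2 and 3 and 0 in the other 8. Adding each pseudogene to its member left the counts of called members at 0, 0 and 10 in the 3 comparisons. The fold changes of Rpl27 given above are without the Rpl27-ps3 reads, and those with them added are not given here.

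Other genes of translation were read from lists. The 78 mitochondrial ribosomal protein genes had median log2 differences of -0.11, 0.34, 0.22 and 0.33 in the Tdg-/- lines. Against wt 37 of them passed an unadjusted p of 0.05 upwards and 0 downwards, beside 9.13% and 6.79% of all genes. In that comparison 0 were past the adjusted threshold, and their median log2 fold change was 0.34. The 535 genes of at most 750 bases outside the members stood at -0.11, 0.32, 0.20 and 0.24 in the same lines. The lists were not matched for length, and the part of length was not tested. Against Tdg+/-, 2 of the 78 rose and 1 fell past the adjusted threshold, or 3.85%, beside 9.03% of all genes. Mrpl50 rose by 0.69 ± 0.17 (SE, adjusted p = 0.0435) and Mrpl23 by 0.62 ± 0.16 (SE, adjusted p = 0.0438), and Mrpl38, on chromosome 11, differed by -0.47 ± 0.11 (SE, adjusted p = 0.0402). The medians of assembly factors were nearer 0, at -0.039, 0.023, 0.019 and 0.10 for 36 factors of the large subunit and 0.0029, -0.0013, 0.0013 and 0.054 for 41 of the small subunit, and against Tdg+/- 0 rose and 4 of these 77 fell past the adjusted threshold, a share near the 5.51% of all genes called downwards. They include Mdn1, an ATPase of large subunit assembly, at -0.52 ± 0.11 (SE, adjusted p = 0.031), and, both on chromosome 11, Ftsj3, a methyltransferase, at -0.71 ± 0.16 (SE, adjusted p = 0.0342), and Tsr1, a late small subunit factor, at -0.68 ± 0.15 (SE, adjusted p = 0.0325). The 16 elongation and termination factors had medians of -0.031, 0.091, 0.20 and 0.19, and 0 were called in any comparison. Of the 36 initiation factors, 2 rose and 2 fell against Tdg+/-, near those shares of all genes, the first being the eIF3 subunits Eif3e at 0.53 ± 0.13 (SE, adjusted p = 0.0419) and Eif3m at 0.63 ± 0.16 (SE, adjusted p = 0.0459). Among 15 small nucleolar RNP genes 1 fell, Ncl, which encodes nucleolin, at -0.64 ± 0.15 (SE, adjusted p = 0.0394), and among 15 RNA polymerase I genes 1 rose, Taf1d, at 0.997 ± 0.21 (SE, adjusted p = 0.0304). Each is 6.67% of its list, beside 5.51% of all genes called downwards and 3.52% upwards.

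Of 17 regulators of ribosomal protein genes, 3 fell against Tdg+/- and 0 rose, beside 5.51% and 3.52% of all genes. Larp1, which binds TOP RNAs, had 60.7, 62.0 and 63.6 CPM in wt, 75.3, 93.9 and 89.3 in Tdg+/-, and 59.8, 36.1, 39.8 and 41.0 in Tdg-/-, a difference of -0.96 ± 0.18 (SE, adjusted p = 0.0256). Rptor, the scaffold of mTOR complex 1, had 27.9, 29.6 and 27.4 CPM in wt, 37.5, 51.6 and 49.4 in Tdg+/-, and 28.0, 24.7, 21.6 and 27.3 in Tdg-/-, a difference of -0.86 ± 0.15 (SE, adjusted p = 0.0241). Rps6kb1, a kinase that phosphorylates ribosomal protein S6, had -0.54 ± 0.12 (SE, adjusted p = 0.0353). All 3 lie on chromosome 11, on which the Tdg+/- lines were higher as a whole. Against wt, Larp1 had a log2 fold change of -0.47 ± 0.16 (SE, unadjusted p = 0.0157, adjusted p = 0.295), with no length trend taken out. All Tdg-/- lines were below all wt lines, line 1 only just (59.8 CPM against 60.7 in wt line 1). In that comparison 0 of the 17 passed the adjusted threshold.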

How the data were processed

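The data are RNA sequencing libraries of 10 mouse ESC lines, 1 library a line. Per the labels and the study's methods, the authors depleted ribosomal RNA, made stranded total RNA libraries and ran Salmon 0.8.1 over the single-end reads against transcripts of GRCm39. Each deposited file lists 116357 transcripts, each with an estimated count (expected count) of reads, not normalized, and the TPM that the authors' run of Salmon computed from effective transcript lengths. Their lengths, also deposited, served for the length offset.

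Here 115153 transcripts (98.97%) were paired with genes by identifier through an annotation of GRCm38, and reads of the others, 0.472% to 0.499% a line, were left out. The annotation also gave names, chromosomes, and the types of genes and transcripts, such as protein-coding or retained-intron. The estimated counts of a gene's transcripts were added up and rounded. Groups followed the genotype labels. A gene entered a fit if any of its lines held 20 reads or more, and was tested between genotypes with edgeR 4.0.16 (quasi-likelihood, TMM) in R 4.3.3, adjusted after Benjamini-Hochberg over all genes, with 0.05 as the threshold. CPM were scaled by TMM over the 10 lines, and log2 CPM used a prior count of 2. Standard errors are the log2 fold change over the root of edgeR's F. Levels between genes were compared in TPM only. Alternatives used DESeq2 1.42.0 and surrogate variables of sva 3.50.0 (3, the number in the study). The test was checked on simulated counts of Tdg-/- and Tdg+/- lines with known changes. At a spread of 10% it recovered 91 of 100 changes of 1.5-fold, and at 20% it recovered 16. Changes of 3-fold were all recovered. The common biological coefficient of variation of the fits here was 0.197 to 0.21, and that of the median member 14.9%, so changes of 1.5-fold could be missed. The simulation gave every gene the same spread and held no length trend, chromosome shift or line that stood apart. Its recovery is therefore not that of the members.

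Replicate numbers of the labels were checked as pairs by correlating deviations from the genotype means. In Tdg-/- against wt, same-numbered lines correlated at 0.188, 0.122 and 0.152, and the numbers were taken to pair them. This pairing is an assumption that the labels do not give, and the main test left it out. In the other comparisons at least 1 pair was below 0.1, and lines of unlike number reached 0.166 (Tdg+/- line 3 with wt line 2). Nothing else ties lines together, so p-values measure the spread between these lines. The members, the gene lists and the tests were chosen with earlier results of these data known. Genes named are the 5 highest and lowest in TPM, called members or the 3 of each subunit with the smallest p in a comparison, paralogs, chromosome 11 and 16 members, stalk genes, the extremes of spread, and of each list genes among the 2 with the smallest p in a comparison; others (Rpl10a, Rps26, Rpl29, Rps6kb1, Mrpl23, pseudogenes and the markers) were chosen after their values were seen.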

Additional observations from a re-analysis of the deposited data

Results flagged for a closer look

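In 4 of the 54 values tested (the CPM of the named members, and the shares, medians and ratio of the subunits), 1 of the 4 Tdg-/- lines lay further from the next than Dixon's 95% limit for 4 samples allows, where chance gives about 1 in 20. It was the lowest line each time, Tdg-/- line 1. Rpl7 was at 3253 CPM in Tdg-/- line 1 and at 3759.8, 3750.5 and 3738 CPM in lines 2 to 4, a gap of 0.958 of the range. Rpl24 was at 886 CPM in Tdg-/- line 1 and at 1349, 1313 and 1274 CPM in lines 2 to 4, a gap of 0.839 of the range. Rpl7l1 was at 388 CPM in Tdg-/- line 1 and at 561, 541 and 556 CPM in lines 2 to 4, a gap of 0.884 of the range. Rps27l was at 346 CPM in Tdg-/- line 1 and at 590.3, 568 and 581 CPM in lines 2 to 4, a gap of 0.908 of the range. Differences between other lines within a genotype could not be judged this way, since groups of 3 are not tested.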

How the results depend on the processing

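The directions of the median fold changes of both subunits in Tdg-/- against wt and against Tdg+/- held under every alternative tried. Counts of called members did not. They mostly stand here and above without the share of all genes called under the same alternative, which can move too. The counts therefore show how the calls depend on the setting and nothing particular to the members. Against wt, 0 members became 3 with DESeq2, 1 with 3 surrogate variables, 0 to 69 when single lines were left out, and 34 with the length trend removed and Tdg-/- line 1 left out. Against Tdg+/-, 10 became 6 with TMM factors from genes off chromosomes 11 and 16, 18 with no filter on low counts, 49 with DESeq2, 30 in a fit of all 10 lines, 63 with surrogate variables, 1 with an offset for each transcript's effective length, 21 with the length trend removed, 2 with the chromosome shifts removed, 56 with the length trend removed and Tdg-/- line 1 left out, and 0 to 69 when single lines were left out. With the replicate block, 0 of the 10 calls held in Tdg-/- against Tdg+/-, whose lines share only a number (correlations 0.0242, 0.0967 and -0.153). That fit also leaves out the Tdg-/- line that has no partner in Tdg+/-. Leaving out this line alone also gave 0 calls, so the part of the block and that of the missing line cannot be told apart. The block left the count at 0 in Tdg+/- against wt (correlations 0.106, 0.059 and -0.0345). In Tdg+/- against wt, 0 became 1 with no filter, 5 with DESeq2 and 25 with surrogate variables, which leave 1 residual degree of freedom. The large subunit median in that comparison moved from -0.071 to -0.036 with TMM off chromosomes 11 and 16 and ran over -0.063 to -0.023 when single lines were left out. That of the small subunit went from -0.024 to 0.011 without wt line 1 and to 0.011 with TMM off chromosomes 11 and 16. Against wt, the Tdg-/- medians of the large and small subunit fell to 0.084 and 0.10 with surrogate variables, 0.18 and 0.25 with the length trend removed, and 0.23 and 0.30 with Tdg-/- line 1 also left out. Leaving out single lines gave 0.33 to 0.52 and 0.39 to 0.61 there. Rps2 turned from higher to lower in Tdg-/- with the length trend removed and line 1 left out, at -0.28 against wt (edgeR adjusted p = 0.0435) and -0.27 against Tdg+/- (adjusted p = 0.0412). The cause was not tested in any of these. The length trend, chromosome shift and joint alternatives were chosen after seeing the data. Of the values of single genes, 2076 kept side and direction, 167 came to pass the threshold, 91 no longer did, 100 changed sign while past the threshold under neither setting, and the 2 of Rps2 reversed.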
